A study of Mus musculus with 12 samples.

Results

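Messenger RNA of the core circadian clock genes was described in the livers of fenofibrate-fed mice that lack Pctp and of wild-type littermates. The members are the 10 genes Per1, Per2, Per3, Cry1, Cry2, Clock, Arntl (also called Bmal1), Npas2, Dbp and Nr1d1. They were found by gene symbol among the probe sets that have 1 symbol, which gave 16 probe sets of 22626 tested, and 10 genes of 12393. Pctp encodes phosphatidylcholine transfer protein (PC-TP, StarD2), which moves phosphatidylcholine between membranes, and fenofibrate lowers blood lipids by way of the nuclear receptor PPARα. The study compared 6 Pctp-/- livers with 6 wild-type livers, all from male mice on an FVB/NJ background, with RNA of 1 liver on each Affymetrix array. Both groups, wild type included, ate a diet with 0.2% fenofibrate (wt/wt) for 7 days, beginning when the mice were 8 weeks old, and were killed for liver at 9 weeks. No group without the drug was analysed here. The allele is named as Pctp-/- without the part of the gene that is disrupted. The sources used here do not state the hour of the day or the feeding state at which livers were taken.

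The clock is a feedback loop of transcription. BMAL1, the product of Arntl, pairs with CLOCK or with its relative NPAS2 and activates genes that carry an E-box, among them the Per and Cry genes, Dbp and Nr1d1. PER and CRY proteins return to the nucleus and block that activator. REV-ERBα, the product of Nr1d1, represses Arntl, Clock and Npas2 through elements that it shares with the ROR activators, and DBP activates genes through D-boxes, Per genes among them. In mouse liver the RNA of Nr1d1, Dbp and the Per genes peaks between midday and the early night, and the RNA of Arntl, Clock and Npas2 is high at about the opposite side of the cycle, so the level of each gene depends on the hour at which the liver was taken.

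The DNA elements through which these genes act on each other are shown here for 4 members, in windows from 250 bases before to 50 bases after an annotated gene start (RefSeq, GRCm38.p6). Per1 and Cry2 are shown because they differed between the genotypes, and Arntl because it carries the element that REV-ERBα binds. Per3 is shown because its RNA, by its brightest probe set, moved with that of Dbp from array to array. Letters in capitals mark a match to the E-box CACGTG or its variant CACGTT (Per1, Cry2), to the D-box TTATGTAA or TTACGTAA (Per3), or to the RRE, the element bound by REV-ERB and ROR (Arntl). The matches were searched on both strands and did not overlap each other.
Per1 (chr11:69098699-69098998, plus strand): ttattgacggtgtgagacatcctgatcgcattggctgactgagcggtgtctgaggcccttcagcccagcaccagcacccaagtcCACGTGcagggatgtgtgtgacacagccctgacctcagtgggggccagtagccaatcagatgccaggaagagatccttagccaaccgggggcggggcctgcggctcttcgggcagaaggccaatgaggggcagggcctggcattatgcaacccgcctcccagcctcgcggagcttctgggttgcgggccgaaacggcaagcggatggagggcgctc
Cry2 (chr2:92434020-92434319, minus strand): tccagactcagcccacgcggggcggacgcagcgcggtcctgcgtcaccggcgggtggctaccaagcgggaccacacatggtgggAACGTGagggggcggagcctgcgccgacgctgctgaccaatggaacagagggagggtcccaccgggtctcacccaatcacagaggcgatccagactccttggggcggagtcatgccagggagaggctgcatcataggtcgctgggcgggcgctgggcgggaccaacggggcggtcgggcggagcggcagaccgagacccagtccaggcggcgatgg
Per3 (chr4:151044616-151044915, minus strand): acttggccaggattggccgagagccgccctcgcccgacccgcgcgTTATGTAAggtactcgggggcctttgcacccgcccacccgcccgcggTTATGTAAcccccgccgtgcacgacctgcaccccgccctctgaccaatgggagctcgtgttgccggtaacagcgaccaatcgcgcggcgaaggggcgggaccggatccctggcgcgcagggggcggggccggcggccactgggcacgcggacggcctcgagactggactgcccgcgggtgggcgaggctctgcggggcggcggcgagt
Arntl (chr7:113207261-113207560, plus strand): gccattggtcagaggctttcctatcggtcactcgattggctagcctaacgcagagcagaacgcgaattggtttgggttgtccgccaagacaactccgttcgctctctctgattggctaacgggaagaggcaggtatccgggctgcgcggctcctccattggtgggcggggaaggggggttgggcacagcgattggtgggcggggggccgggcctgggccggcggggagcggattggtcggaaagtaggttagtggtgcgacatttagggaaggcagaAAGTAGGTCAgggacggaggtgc
The Per1 window shown holds an E-box that begins 166 bases before the start. The Cry2 window holds the E-box variant on the other strand, also from 166 bases before the start. Per3 has a pair of D-boxes that begin 205 and 158 bases before its start, and the Arntl element begins 27 bases after the start. Outside the windows shown, Cry1 had an E-box at 60 bases and a variant at 79 bases before its start, and Nr1d1 a variant at 28 bases before its start. Windows were found for 9 members, 13 windows in all, and 7 of these windows held none of the letters searched. Those were the windows of Dbp, Clock and Npas2 and a further window each of Per1 and Arntl, at another annotated start. Per2 had no window in the table. Of all 32851 windows of the same length, 7.15% held the E-box, 4.68% its variant, 1.06% a D-box and 0.435% the REV-ERB and ROR element. A match describes the letters of the window and not binding.

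Pctp itself read 82.5 ± 12.3 in knockout and 2854.7 ± 77.2 in wild-type livers (n = 6 a group, SD; intensity in the authors' units), and the groups did not overlap. The median intensity of an array was at most 91.1, and the number of arrays limits the precision. Hepatocyte markers Alb, Apoa1, Ttr and Cps1 summed to between 36495 and 37689 in knockout and between 36994 and 38306 in wild type. Of these, Cps1 fell (log2 difference -0.20, adjusted p = 0.0294, limma). Of 5 stellate cell markers 2 rose, Dcn and Reln, with sums from 1823 to 2034 in knockout and from 1353 to 1825 in wild type. None of the 5 Kupffer cell, 5 endothelial, 4 cholangiocyte or 4 lymphocyte markers measured passed, and the sums of each of these lists overlapped between the groups. Kupffer cell sums ran from 1839 to 2540 in knockout and from 1411 to 3552 in wild type. Wild-type replicates 2 and 5 were the highest of their group for all 5 Kupffer cell markers. Cd5l read 1401.8 and 1289.1 there, 473.7 to 598.5 in the other wild-type arrays and 736.1 to 1041.6 in knockout. No measured marker was at 0. Control probe sets read beta-actin near either end of its transcript, and the log2 ratio of 5' over 3', a measure of RNA integrity, was -1.18 ± 0.0839 in knockout and -1.57 ± 0.132 in wild type (n = 6 a group, SD). It ran from -1.26 to -1.05 in knockout and from -1.76 to -1.40 in wild type, without overlap (difference 0.39, two-sided exact permutation p = 0.00216, the smallest the design allows).

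Among the 10 clock genes, the repressor genes Per1 and Cry2 fell in knockout livers and no clock gene rose, each gene being read by the brightest of its probe sets. Over all 12393 genes, 5.24% fell and 6.46% rose by the same rule, and 11.7% passed in either direction. Per1 and Cry2 were also the members whose groups did not overlap, both lower, and of all genes 6.80% had groups without overlap and 3.12% were lower without overlap. By probe set, 3 of the 16 fell (Per1, Cry2 and the dimmer of Clock) and none rose, where 5.15% of all probe sets fell and 6.82% rose. Probe sets without overlap were 6.75% of all, and 2.86% were so and lower. With limma, 1 clock gene was higher and 3 were lower at an unadjusted p under 0.05. Of all 12393 genes, 1841 were higher and 1408 lower at that cut. With an unmoderated test the adjusted counts were also 0 higher and 2 lower, and the share of all genes under that test is not given here. The median absolute log2 difference, knockout minus wild type, was 0.28 over the 10 clock genes and 0.10 over all genes. Of the 10, 8 did not pass, and most of them varied more within a genotype than the typical probe set, as given below. The part of that spread in the larger median was not tested. Differences are of log2(intensity + 16), which understates the change of dim genes, and in pieces of liver fewer cells of a type and less RNA per cell cannot be told apart. The part of the stellate and Kupffer cell markers in the clock gene differences was not tested.

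**Figure D1:**
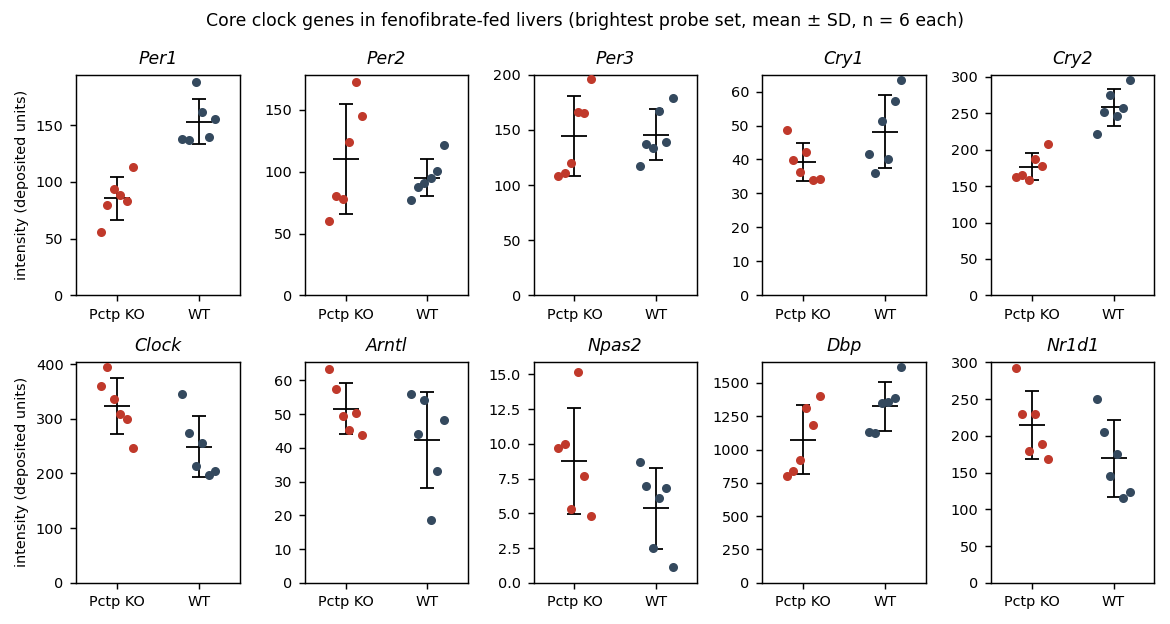
Intensity (vertical axes, deposited units, from 0) of the brightest probe set of each clock gene in 6 Pctp knockout (left, red) and 6 wild-type arrays (right, dark), with mean and SD. Points run in replicate order from left to right within a group, and the groups separate without overlap for Per1 and Cry2.

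The Per genes encode the period proteins, which enter the nucleus with CRY and repress CLOCK and BMAL1. Per1, on chromosome 11 from 69095108 to 69109965, read 56.0, 79.6, 93.7, 88.4, 83.3 and 113.6 in knockout replicates 1 to 6, against 137.6, 136.9, 188.1, 161.6, 139.5 and 155.3 in wild-type replicates 1 to 6. Every knockout array lay below every wild-type array. The means were 85.8 ± 18.8 in knockout and 153.2 ± 20.0 in wild type (n = 6 a group, SD), a log2 difference of -0.75 (SE 0.122, 95% interval from -1.01 to -0.48, adjusted p = 0.00289, limma). That is 1.68-fold lower in knockout. The authors' deposited table gives Per1 a signed fold of -1.77 (minus for lower in knockout) between bounds of -1.46 and -2.17, and calls it present on 83% of knockout and 100% of wild-type arrays. The call held in each of 22 other analyses, with adjusted p from 0.000452 to 0.00810. The exception was the fit that took the beta-actin ratio in as a covariate, where Per1 was at -0.19 (adjusted p = 0.917). The groups share no value of that ratio, so the covariate and the genotype cannot be told apart.

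Per2, the period gene whose RNA also responds to feeding and temperature, did not pass. Its brighter probe set ran from 59.8 over a median of 102.5 to 172.9 in knockout and from 77.1 over a median of 92.7 to 121.3 in wild type. The wild-type range lay wholly inside the knockout range. The log2 difference was 0.12 (95% interval from -0.32 to 0.55, adjusted p = 0.772), and its dimmer probe set gave 0.13 (adjusted p = 0.430). Per3, a period gene that is dispensable for the rhythm itself in mice, ran from 108.6 over a median of 142.8 to 195.9 in knockout and from 117.4 over a median of 138.5 to 178.8 in wild type. The difference of its brightest probe set was -0.03 (95% interval from -0.34 to 0.28, adjusted p = 0.929), and its other probe sets gave 0.00 and 0.09 with adjusted p of 0.984 and 0.655. These intervals leave room for a change of Per2 as large as 0.55 on the log2 scale, and for one of Per3 as large as 0.34 downward.

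The Cry genes encode cryptochromes, the repressors that bind CLOCK and BMAL1 directly. Cry2, on chromosome 2 from 92403646 to 92434085, read 162.8, 165.7, 157.8, 187.3, 178.0 and 208.0 in knockout replicates 1 to 6, against 221.8, 251.7, 274.9, 245.5, 257.7 and 296.0 in wild-type replicates 1 to 6. The highest knockout array was below the lowest wild-type array. The means were 176.6 ± 18.8 in knockout and 257.9 ± 25.4 in wild type (n = 6 a group, SD), a log2 difference of -0.51 (SE 0.0770, 95% interval from -0.68 to -0.34, adjusted p = 0.00201, limma) or 1.42-fold lower in knockout. In the authors' deposited table Cry2 has a fold of -1.46, with bounds of -1.31 and -1.62. Over the same 22 other analyses the adjusted p of Cry2 lay between 0.000320 and 0.00776, and its difference was -0.19 once the beta-actin covariate was added (adjusted p = 0.860). Cry1, its paralogue, was dimmer and ran from 33.9 over a median of 38.1 to 48.8 in knockout and from 35.9 over a median of 46.5 to 63.5 in wild type. The groups overlapped and the log2 difference of -0.21 did not pass (95% interval from -0.44 to 0.02, adjusted p = 0.247).

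**Figure D2:**
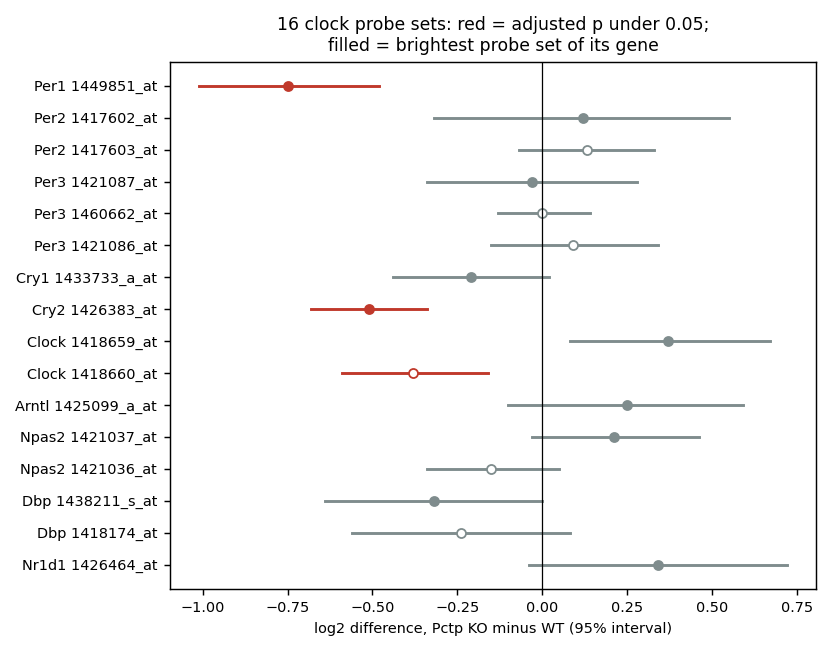
Log2 difference in intensity, knockout minus wild type (horizontal axis), with its 95% interval for each of the 16 clock probe sets, 6 arrays a group. Red marks adjusted p under 0.05 and filled points the brightest probe set of a gene. Per1 at -0.75 and Cry2 at -0.51 lie furthest from 0, and the pair of Clock probe sets lie on opposite sides.

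Clock encodes one of the partners of BMAL1, and its probe sets disagreed in direction. The brighter one read 359.0, 394.0, 336.6, 308.3, 299.5 and 245.6 in knockout replicates 1 to 6, against 345.5, 274.5, 214.2, 255.2, 197.7 and 205.1 in wild-type replicates 1 to 6. Its log2 difference of 0.37 did not pass (SE 0.137, 95% interval from 0.08 to 0.67, adjusted p = 0.10), and without wild-type replicate 1 it did (adjusted p = 0.0248). The mean of both Clock probe sets was at 0.00 (adjusted p = 0.995). The dimmer one read 104.9, 121.6, 97.3, 81.3, 98.3 and 81.7 in knockout replicates 1 to 6, against 153.9, 128.8, 103.3, 149.0, 124.0 and 128.3 in wild-type replicates 1 to 6.

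By that dimmer probe set the transcript was lower in knockout by a log2 difference of -0.38 (SE 0.101, adjusted p = 0.0295), with overlapping groups. The call was lost in 9 of 21 other analyses, among them the unmoderated test and the fits without knockout replicate 3, 4, 5 or 6 or wild-type replicate 1, 4 or 6. The highest adjusted p among these fits without 1 array was 0.0631. The log2 ratio of the brighter to the dimmer Clock probe set, examined after the values were seen and not tested, lay between 1.42 and 1.74 in knockout and between 0.61 and 1.09 in wild type. Of 7 such pairs of probe sets of 1 clock gene this was the 1 pair without overlap between the groups. How many pairs of other genes lack overlap was not counted, so nothing particular to Clock can be read from it. The sources used here do not say which transcript, or which end of it, each probe set reads, and the beta-actin ratio of the 5' to the 3' end differed between the groups as given above. Within the groups the Clock probe sets still moved alike (Pearson r = 0.76 over 12 arrays), though the arrays did not stand in the same order.

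Arntl, the gene of BMAL1, ran from 43.8 over a median of 49.9 to 63.3 in knockout and from 18.7 over a median of 46.2 to 56.1 in wild type. The low end of the wild-type range was replicate 4. The log2 difference was 0.25 and did not pass (95% interval from -0.10 to 0.59, adjusted p = 0.363), and without wild-type replicate 4 it was 0.10 (adjusted p = 0.607). Npas2, which can stand in for Clock, was near the bottom of the scale at 8.80 ± 3.80 in knockout and 5.37 ± 2.94 in wild type (n = 6 a group, SD), where the median of all probe sets is 88.8. Its probe sets differed by 0.21 and -0.15, neither past the threshold (adjusted p = 0.259 and 0.326), and no difference was detectable at this signal.

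Nr1d1, which encodes the repressor REV-ERBα, read 292.0, 229.8, 178.9, 229.5, 189.0 and 168.8 in knockout replicates 1 to 6, against 250.2, 205.6, 145.2, 175.6, 116.0 and 122.9 in wild-type replicates 1 to 6. The groups overlapped. The log2 difference of 0.34 did not pass (SE 0.177, 95% interval from -0.04 to 0.72, adjusted p = 0.251).

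Dbp, the D-box activator and a direct target of CLOCK and BMAL1, read 800.0, 836.3, 921.1, 1312.5, 1182.1 and 1400.9 in knockout replicates 1 to 6, against 1131.2, 1120.8, 1349.6, 1353.5, 1385.0 and 1617.9 in wild-type replicates 1 to 6. Replicates 4, 5 and 6 of the knockout reached the wild-type range and replicates 1, 2 and 3 lay below it. The log2 difference of -0.32 did not pass (SE 0.146, adjusted p = 0.184). The other Dbp probe set gave -0.24 (95% interval from -0.56 to 0.08, adjusted p = 0.341). The brighter probe set carries the suffix _s_at, which Affymetrix gives to probes that can match more than 1 transcript.

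The spread among arrays of the same genotype was large for most of these genes. On the log2 scale the within-group SD was 0.387 for Per2, 0.341 for Nr1d1, 0.279 for Dbp, 0.270 for Per3, 0.260 for Clock and 0.229 for Per1, against a median of 0.109 over 10755 probe sets with a mean intensity of at least 100. The SD of Per2 was larger than that of 98.2% of those probe sets, and that of Nr1d1 larger than 97.5%. Cry2 varied less, at 0.136 (68.6%), and the second Per3 probe set at 0.105 was close to the median. In the knockout the SD was 0.515 for Per2 and 0.342 for Dbp, and in wild type it was 0.187 for Per2 and 0.197 for Dbp, a difference that was not tested.

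The members shared that spread, each gene being read by its brightest probe set. After the group mean was taken from each array, Dbp moved with Per3 (Pearson r = 0.93 over 12 arrays), Per2 (0.88) and Cry2 (0.84), and against Clock (-0.80) and Nr1d1 (-0.64). Clock and Nr1d1 moved together (0.87), and Clock moved against Cry2 (-0.85). Each of these pairs had the same sign within both genotypes. Dbp against Per3 gave 0.99 in knockout and 0.78 in wild type, and Clock against Nr1d1 gave 0.65 in knockout and 0.98 in wild type (n = 6 each). Per1 followed the same set more loosely, with 0.66 against Dbp. Cry1 did not keep 1 sign, at -0.55 against Dbp in knockout and 0.86 in wild type, and Arntl was at -0.90 against Dbp in knockout and -0.19 in wild type. Of the 45 pairs of members, 6 had r of at least 0.8 and 2 had r of -0.8 or lower. The dimmer probe sets of Per3 followed its brightest one unequally, with r of 0.78 and 0.25. These correlations describe the same 12 arrays, and all values of an array share 1 liver and 1 scaling.

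For Dbp, Per3, Nr1d1 and Clock, by the brightest probe set of each, the arrays that carried this pattern had largely the same replicate numbers in both genotypes. Dbp was lowest in replicates 1 and 2 and highest in replicate 6 in knockout and in wild type alike. Per3 was also lowest in replicate 1 and highest in replicate 6 of both groups, and Nr1d1 was highest in replicate 1, followed by replicate 2, of both. The second Per3 probe set was lowest in knockout replicate 2 and highest in wild-type replicate 4. Its dimmest was lowest in replicate 5 of knockout and replicate 3 of wild type. Clock was highest in replicates 1 and 2 of both groups and lowest in replicates 5 and 6. The dimmer Clock probe set was lowest in knockout replicate 4 and wild-type replicate 3, and the dimmer Per2 probe set was highest in wild-type replicate 1. Cry1 was highest in replicate 1 of knockout and replicate 6 of wild type, and Per1 in replicate 6 of knockout and replicate 3 of wild type. Cry2 was highest in replicate 6 of both groups but lowest in replicate 3 of knockout and replicate 1 of wild type. Arntl was highest in replicate 1 of both but lowest in replicate 6 of knockout and replicate 4 of wild type. Npas2 was lowest in replicate 6 of both but highest in replicate 4 of knockout and replicate 1 of wild type. The sources used here do not say whether a number stands for an order of collection. Over all probe sets, arrays of the same number did not deviate together (r from -0.08 to 0.08).

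**Figure D3:**
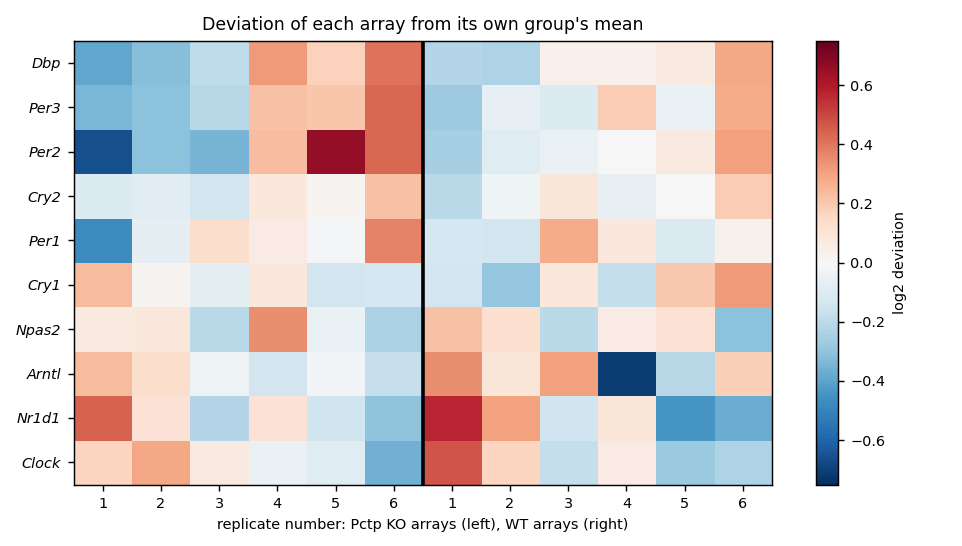
Deviation of each array from the mean of its own genotype on the log2 scale (colour), for the brightest probe set of each of the 10 clock genes (rows), in 6 knockout arrays left of the line and 6 wild-type arrays right of it, by replicate number. Dbp, Per3, Per2 and Cry2 are low in replicate 1 and high in replicate 6 of both groups, and Nr1d1 and Clock show the opposite colours. Cry1 is highest in replicate 1 of knockout and replicate 6 of wild type, and Arntl is lowest in wild-type replicate 4.

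For 4 members the non-member genes with the most similar deviations were looked up among 6680 genes with a mean intensity of at least 100. For Dbp they were Phb2 (r = 0.92), Tef (0.90) and Polr2h (0.90), and for Per2 they were Polr2h (0.90), Mgst3 (0.90) and Slc47a1 (0.89). For Nr1d1 they were Bmi1 (0.94), Sarnp (0.94) and Phf20l1 (0.93), and for Arntl Gpalpp1 (0.91), Ints3 (0.81) and Zfp622 (0.79), all over 12 arrays. Tef, a relative of Dbp that binds the same D-boxes, is the 1 clock-linked gene among them by the lists used here. Each r was picked as one of the highest of 6680 over 12 arrays, and none was tested.

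Regulators of the clock outside the 10 members were a list of 22 genes by textbook role. The list was chosen with earlier results of these data known, so its counts are a description. Of 16 measured, 2 fell and 1 rose, where 5.24% of all genes fell and 6.46% rose, with a median log2 difference of -0.07 against 0.01 over all genes. Nr1d2, the second REV-ERB gene, read 1199 ± 115 in knockout and 1465 ± 104 in wild type (n = 6 a group, SD), and fell by 0.29 on the log2 scale (adjusted p = 0.0183). Its dim second probe set was at 0.21 and did not pass (adjusted p = 0.260), and the mean of both did not pass. Rora, an activator that competes with the REV-ERBs for the same element, was 1.27-fold lower in knockout, at 337.2 ± 40.2 in knockout and 433.5 ± 42.2 in wild type (n = 6 a group, SD; adjusted p = 0.0186), and its dimmer probe sets did not pass. Fbxw11, a ubiquitin ligase subunit that takes part in the turnover of PER proteins, rose by 0.17 (adjusted p = 0.0474), a call lost in 13 of 22 other analyses, while its second probe set was at 0.29 (adjusted p = 0.00289) without overlap between the groups.

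Among the regulators that did not pass, the repressor Bhlhe40 was at 0.36 (adjusted p = 0.0969), Arntl2 at 0.47 (adjusted p = 0.0904), the kinase Csnk1e, which phosphorylates PER, at -0.30 (adjusted p = 0.118), Gsk3b at -0.11 (adjusted p = 0.529) and the dim Rorb at -0.14 (adjusted p = 0.567). Leaving out knockout replicate 3 moved Bhlhe40 (adjusted p = 0.0463) and Csnk1e (adjusted p = 0.0466) past the threshold, and leaving out knockout replicate 4 did so for Arntl2 (adjusted p = 0.0137).

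Of 18 clock-controlled genes measured, out of 19 listed, 7 fell and none rose by limma, while at an unadjusted p under 0.05 there were 2 higher and 7 lower. Over all 12393 genes 5.24% fell and 6.46% rose, and 1841 were higher and 1408 lower at an unadjusted p under 0.05. The list holds genes already known to fall in these livers, so its count is a description. Their median log2 difference was -0.27 against 0.01 over all genes. Tef read 524.4 ± 91.6 in knockout and 741.8 ± 99.6 in wild type (n = 6 a group, SD), 1.41-fold lower in knockout (adjusted p = 0.0165), but its dimmer probe sets were at -0.21 and -0.02, and the mean of its probe sets did not pass (adjusted p = 0.0999). Usp2, a deubiquitinase that acts on clock proteins, read 176.5 ± 69.5 in knockout and 378.9 ± 97.2 in wild type (n = 6 a group, SD), 2.11-fold lower (adjusted p = 0.0147), and its second probe set fell too (adjusted p = 0.0125).

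Gys2, the liver glycogen synthase gene and a target of CLOCK, fell without overlap between the groups, at 1538 ± 85.4 in knockout and 2019 ± 144 in wild type (n = 6 a group, SD; log2 difference -0.39, adjusted p = 0.00186). Ppara, whose RNA cycles under the clock in mouse liver, was 1.35-fold lower in knockout (adjusted p = 0.00449). Upp2 and Lpin1, both with daily rhythms in liver, were lower by 2.53-fold and 2.34-fold (adjusted p = 0.00506 and 0.00194). Rgs16, also rhythmic there, fell by all its probe sets, but the size of its change is not settled, since it was dim in knockout livers (29.5 ± 16.7 in knockout and 173.0 ± 28.8 in wild type by the brightest; n = 6 a group, SD). The log2 difference of that probe set was -2.13 (adjusted p = 0.000334), and it was -2.74 with an added constant of 1 and -1.35 with 64. The other probe sets were at -2.66 and -0.89, and the authors' deposited table gives those a fold of -11.87 and -2.31, each present on 50% of knockout arrays. When beta-actin entered as covariate none of the 7 passed. How many of all genes passed in that fit is not given here. The differences of Rgs16 (-2.03) and Ppara (-0.43) were then about as large as without it. Those of Lpin1 (-0.70), Upp2 (-0.54) and Gys2 (-0.18) were smaller, and Tef and Usp2 were at 0.06 and 0.02. The groups share no value of the beta-actin ratio, so these sizes cannot divide the genotype from the ratio for any of the 7. Of the genes that did not pass, Cyp7a1, the rate-limiting enzyme of bile acid synthesis, was at -0.84 with wide spread (882.9 ± 520 in knockout and 1316.7 ± 317 in wild type, adjusted p = 0.240). Without knockout replicate 2 it was at -0.48 (adjusted p = 0.389), and its dimmer probe set was at -0.18 (adjusted p = 0.835). Cdkn1a was at 0.43 (adjusted p = 0.189), the D-box repressor Nfil3 at -0.30 (adjusted p = 0.396), Alas1 at 0.26 (adjusted p = 0.326) and Hlf, the remaining relative of Dbp and Tef, at -0.24 (adjusted p = 0.276). The dimmer probe set of Hlf passed at -0.31 (adjusted p = 0.0432).

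**Figure D4:**
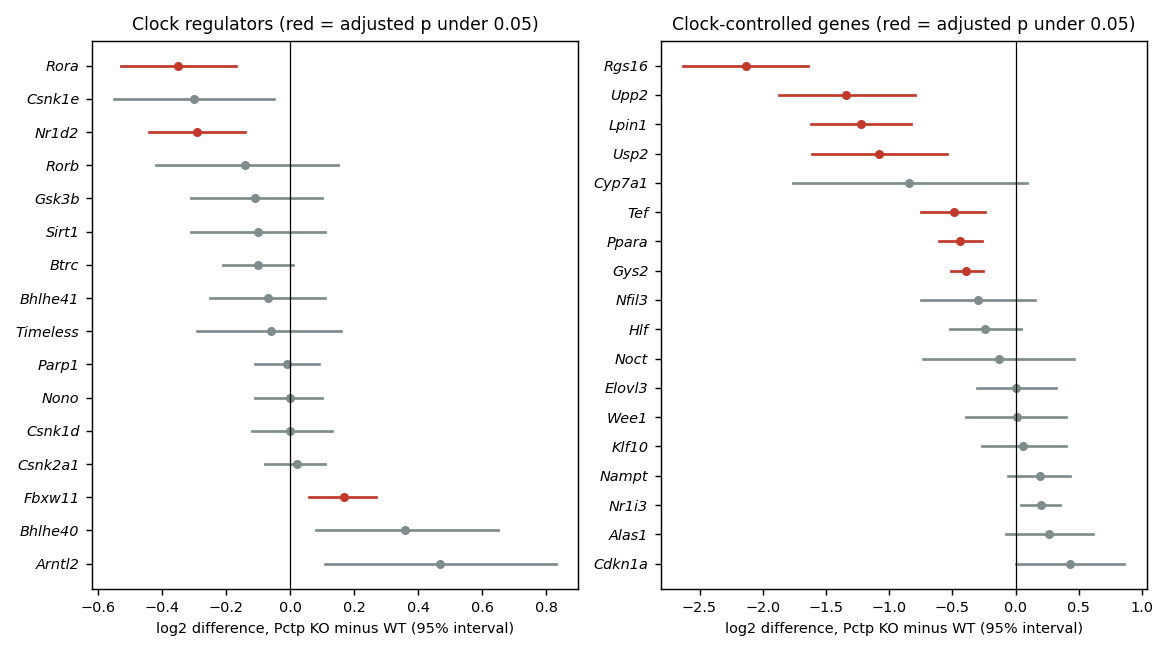
Log2 difference in intensity, knockout minus wild type, with its 95% interval (horizontal axes) for 16 regulators of the clock (left) and 18 clock-controlled genes (right), by the brightest probe set, 6 arrays a group. Red marks adjusted p under 0.05: 2 regulators fell and 1 rose, and 7 clock-controlled genes fell.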

How the data were processed

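Liver RNA of 12 mice was labelled as biotinylated cRNA and put on Affymetrix arrays, per the labels' protocols. The authors deposited 1 intensity per probe set and array on a linear scale; the sources used here name no program for it. A second table that the authors deposited covers 727 probe sets and holds, per the file headers, a signed fold (ratio) with bounds, a t statistic (a score), a p-value and, for each group, the percent of present calls. Its 24 columns of single arrays were not used. Symbols came from the platform annotation, and positions and promoter windows from RefSeq tables of GRCm38.p6.

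After 64 control probe sets were left out, values were analysed as log2(intensity + 16), scaled as deposited, by two-sided tests in limma 3.58.1 (functions lmFit and eBayes, R 4.3.3) over all 22626 probe sets. P-values were adjusted by Benjamini-Hochberg over the whole table, with a threshold of 0.05. The brightest probe set stood for a gene. Each array is a separate liver. The procedure was tested on simulated arrays. Figures used matplotlib 3.10.9.

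The named genes are Pctp, all members, every gene past the threshold and up to 5 others from each of the lists of regulators and clock-controlled genes, and the 3 genes most like each of 4 members. Other genes are the cell type markers. The members and lists were chosen with earlier results of these data known. Alternatives were other added constants, a minimum mean of 100, centring on medians, quantile normalization, array weights, a robust variance with a trend, an unmoderated test, a replicate block, a beta-actin covariate, averaging the probe sets of a gene, other thresholds, and leaving out single arrays.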

Additional observations from a re-analysis of the deposited data

Results flagged for a closer look

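In 2 of 72 groups of 6 arrays examined, 1 array stood far from the other 5, and chance alone gives about 1 in 20 such groups. Hlf, a D-box activator, read 212.9 in knockout replicate 2, and the other knockout arrays lay between 314.8 and 359.0. Nfil3, a D-box repressor, read 132.5 in wild-type replicate 1, where the rest of its group lay between 80.9 and 95.8. Neither gene passed the test by these probe sets.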

How the results depend on the processing

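Per1 and Cry2 stayed lower and past the threshold in every alternative except the beta-actin covariate, under which the counts of lower calls were 0 for the member genes, 0 for their probe sets, 0 for the regulators and 0 for the clock-controlled genes, with 0 regulators higher, and Tef and Usp2 turned to 0.06 and 0.02 on the log2 scale. The differences of Rgs16 (-2.03) and Ppara (-0.43) were about as large under the beta-actin covariate, with the calls lost. Those of Rora (-0.64) and the dimmer Clock probe set (-0.87) were larger, also with the calls lost. The brighter Clock probe set was at -0.25 (adjusted p = 0.898). No ratio is common to both groups, so the sizes under this covariate cannot divide the genotype from the ratio for any gene. Arrays of the same replicate number did not deviate together (r from -0.08 to 0.08, and 0 of 6 knockout arrays correlated best with the wild-type array of their own number). With the replicate block 2 member genes were called higher (2 probe sets), Clock at 0.37 (adjusted p = 0.0369) and Nr1d1 at 0.34 (adjusted p = 0.0290), Dbp was called lower (-0.32, adjusted p = 0.0433), and 0 regulators were called higher. Regulators called higher numbered 0 with an added constant of 1, 0 after median centring, 0 at a threshold of 0.01 and 3 at 0.1. Regulators called lower numbered 1 when the probe sets of a gene were averaged and 0 at a threshold of 0.01. Clock-controlled genes called higher numbered 1 among probe sets with a mean of at least 100, 1 with the trended variance and 1 at a threshold of 0.1. Leaving out 1 array gave 0 to 1 member genes higher and 2 lower, 0 to 1 member probe sets higher and 2 to 3 lower, 0 to 1 regulators higher and 2 to 4 lower (4 without knockout replicate 3), 0 clock-controlled genes higher and 7 lower, and a beta-actin difference from 0.35 to 0.42. How many of all genes were called in each alternative is not given here. The counts above, those under the beta-actin covariate included, therefore describe the lists only. The median difference of all probe sets was 0.0171 as deposited, -0.000515 after quantile normalization and -0.0157 after median centring. Low signal limits what can be said of Npas2, Arntl and Cry1.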
